A study of Mus musculus with 99 samples.

Results

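The gastrocnemius, the large muscle of the calf, was compared between sedentary male C57BL/6 wild type mice of 18 months and of 10 months. The members were every sample whose title names gastrocnemius, a sedentary mouse and 1 of these ages: 10 samples at 18 months and 10 at 10 months, 20 of the 97 libraries analysed here out of 99 labelled. The mice were perfused with buffered saline, the tissue was frozen and polyadenylated RNA was sequenced. The other libraries came from quadriceps and spinal cord and from exercised 18-month mice, which share strain, sex and genotype. Each sample carries a number such as 6.1, and the labels do not state that each came from its own animal, so p-values measure only the spread between these samples, which may be technical. The 18-month numbers begin with 4 to 10 and the 10-month numbers with 1 to 3, so a cage, litter or batch behind that first part cannot be told apart from age. Because whole muscle was sequenced, fewer cells of a type and less RNA per cell cannot be told apart either.

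Mouse gastrocnemius consists mostly of fast, glycolytic fibres, beside smaller populations of fibroblast-like matrix cells, vessel cells, Schwann cells and macrophages. In ageing muscle, fibre loss, changes at the neuromuscular junction, altered matrix and low-grade inflammation are well known, and they build up late in life. Mice of 10 months are mature adults and mice of 18 months stand before the strong loss of muscle mass known from older mice.

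The 18-month libraries held 36.19 to 44.58 M counts and the 10-month libraries 30.56 to 45.02 M. Mitochondrially encoded mRNA, the share of the 10 most abundant genes, the number of genes detected and the slope of expression on gene length did not pass a permutation test between the ages, nor did the total count (two-sided, 100000 resamples, p between 0.26 and 0.848, adjusted over 5 measures 0.777 to 0.848). All 10 genes that define skeletal muscle were expressed, with summed levels of 69720 to 82240 CPM (counts scaled to library size) at 18 months and 63440 to 93590 CPM at 10 months. Of the markers of spinal cord neurons, Chat, Gad2 and Slc17a6 were under 0.1 CPM. The most alike libraries of a group still differed by a chi-square per gene of 9.29 at 18 months and 5.27 at 10 months, so none was counted as a copy.

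Libraries 3.1 and 2.2, both of 10 months, stood apart. Over all genes, their distance from the gastrocnemius mean, as the root of the mean squared log2 deviation, was 0.715 in 3.1 and 0.54 in 2.2, against 0.226 to 0.307 in the other 18 sedentary libraries. In library 3.1 the metallothionein Mt1 stood at 204 CPM, against 6.31 to 12.3 CPM in the other 19 libraries. The ubiquitin ligases Fbxo32 and Trim63, which mark muscle atrophy, stood at 3396 and 1438 CPM there, against at most 759 and 296 CPM elsewhere. Scd1, an enzyme of fatty acid synthesis, was at 7.94 CPM in library 3.1 and at 82.3 to 294 CPM in the others. In library 2.2 mitochondrial mRNA made up 7.15% of counts, against 9.81% in library 3.1 and 10.8 to 11.8% in the other 8 of 10 months, and short genes were relatively higher, with a slope of -0.237 log2 units per log2 of gene length. The comparison was therefore also fitted without both. The mitochondrial share was 9.11 to 11.6% at 18 months, and its difference from those 8 alone was not tested. With all libraries, 2 of 13 mitochondrial mRNAs had a positive fold change (15.4%, against 42.7% of all genes), with a median of -0.04. Without both, 1 had a positive fold change (7.69%, against 50.6%), with a median of -0.08. None was called in either fit by the test below.

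Between the ages 23 of 15027 tested genes changed: 17 rose and 6 fell at 18 months (edgeR quasi-likelihood test with Benjamini-Hochberg adjusted p under 0.05). This is 0.113% of tested genes for rises and 0.0399% for falls. Before adjustment, 647 genes were higher and 832 lower at p under 0.05, which is 4.31% and 5.54%. The median log2 fold change of all tested genes was -0.02. Of the 23 genes, 12 rose by at least 0.5 on the log2 scale and 3 fell by as much. In 5 that rose the groups did not overlap: Sh2d4a, Lrat, Amy1, Col11a2 and Tifa had all 10 libraries of 18 months above every library of 10 months, as did 0.0399% of tested genes. In the other 17 called genes described here the groups overlapped.

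Promoter sequences of the called genes were read from RefSeq (GRCm38.p6), as windows of 250 bases before to 50 bases after an annotated start. Of the 23 genes, 14 matched, with 17 windows in all. They are shown for Pfkfb3, the called gene with the highest CPM, because 1 of its 2 windows holds a clock-type motif, for Lrat, one of the genes that separated the ages completely, and for Nnat, the gene with the largest fall. Capitals mark the E-box CANNTG, the recognition word of basic helix-loop-helix factors, which include clock and muscle regulators. Nnat holds none. Each is printed 5′ to 3′ on the strand of the gene: Pfkfb3 at chr2:11553880-11554179 and chr2:11502041-11502340 and Lrat at chr3:82903925-82904224 on the minus strand, Nnat at chr2:157559828-157560127 on the plus strand.
Pfkfb3 upstream start: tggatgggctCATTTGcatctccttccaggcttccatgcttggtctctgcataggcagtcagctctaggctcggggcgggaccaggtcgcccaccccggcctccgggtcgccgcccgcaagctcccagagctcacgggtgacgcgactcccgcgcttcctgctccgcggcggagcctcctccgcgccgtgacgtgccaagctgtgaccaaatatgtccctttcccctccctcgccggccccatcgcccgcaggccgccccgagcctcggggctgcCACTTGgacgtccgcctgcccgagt
Pfkfb3 downstream start: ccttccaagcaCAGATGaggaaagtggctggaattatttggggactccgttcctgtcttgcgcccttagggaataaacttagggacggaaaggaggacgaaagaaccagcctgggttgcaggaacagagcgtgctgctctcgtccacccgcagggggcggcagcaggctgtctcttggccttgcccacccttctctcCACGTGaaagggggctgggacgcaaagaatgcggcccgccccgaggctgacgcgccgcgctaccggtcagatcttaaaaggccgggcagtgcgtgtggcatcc
Lrat: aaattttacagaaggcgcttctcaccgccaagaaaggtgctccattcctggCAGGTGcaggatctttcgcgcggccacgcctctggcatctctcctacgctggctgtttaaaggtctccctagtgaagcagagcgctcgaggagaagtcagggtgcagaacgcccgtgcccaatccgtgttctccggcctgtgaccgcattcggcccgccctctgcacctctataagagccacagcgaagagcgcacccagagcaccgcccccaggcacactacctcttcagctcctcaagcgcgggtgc
Nnat: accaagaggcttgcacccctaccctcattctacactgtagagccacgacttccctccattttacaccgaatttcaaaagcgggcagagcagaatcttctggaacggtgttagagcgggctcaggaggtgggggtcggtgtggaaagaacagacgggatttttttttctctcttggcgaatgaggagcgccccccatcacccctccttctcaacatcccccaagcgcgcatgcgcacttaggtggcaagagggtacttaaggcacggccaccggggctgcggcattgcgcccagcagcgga
On both strands, CANNTG occurred in 11 of the 17 windows (64.7%) and in 72.3% of all 32851 windows of this length. CACGTG, the form of that word bound by clock factors, occurred in 1 of 17 (5.88%), at the downstream start of Pfkfb3, and in 7.15% of all windows. The cyclic AMP response element TGACGTCA and the CArG box occurred in 0 of the 17 windows, against 1.79% and 1.63% of all. These matches describe the letters of the windows and no binding was measured.

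**Figure D1:**
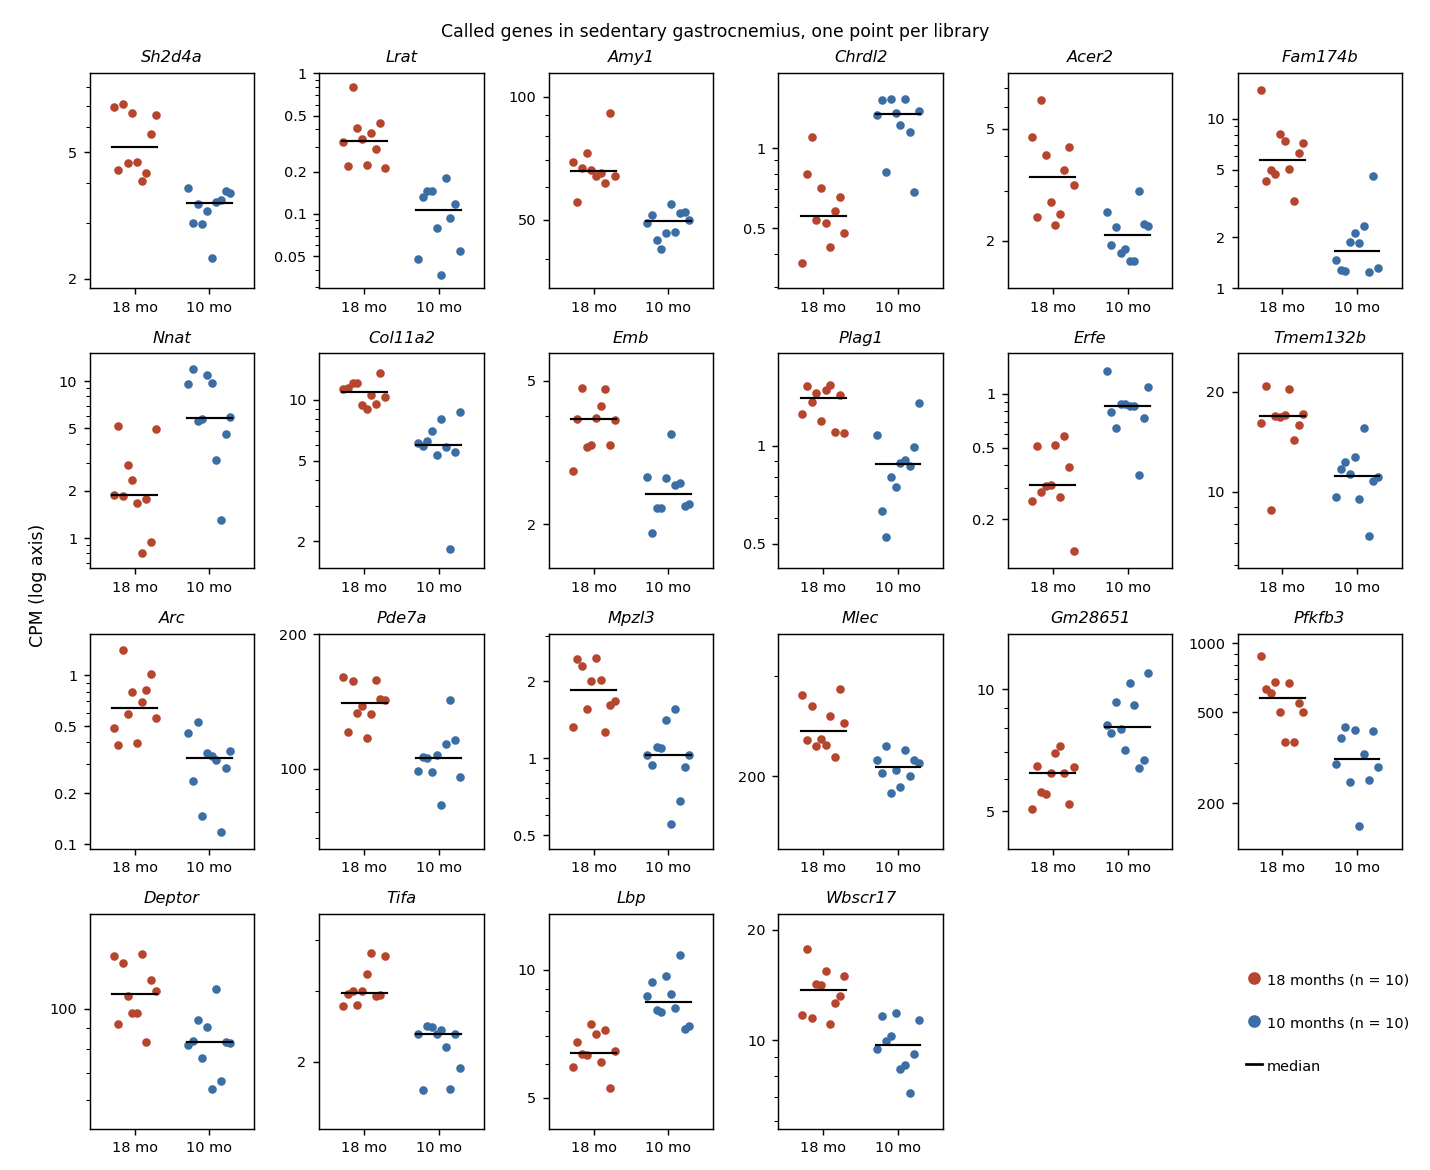
CPM of 22 called genes (log axis) in each of 20 libraries, 18 months left and 10 months right in each panel, in order of p, with the group median as a bar. Sh2d4a, Lrat, Amy1, Col11a2 and Tifa show no overlap between the ages, while in Tmem132b library 6.1, at 8.79 CPM, lies under the 10-month median of 11.2 CPM.

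Pfkfb3, Amy1 and Emb rose. Pfkfb3 makes and removes the sugar bisphosphate that activates phosphofructokinase, the pacing step of glycolysis. It had 369, 578 and 881 CPM (lowest, median, highest) at 18 months, against 159, 314 and 433 CPM at 10 months. The 18-month libraries 9.2 and 7.4 lay within the range of 10 months, and the other 8 lay above it. Its log2 fold change was 0.83 ± 0.18 (SE), with an adjusted p of 0.0421. Per length, Pfkfb3 averaged 210.3 ± 58.7 TPM (transcript counts scaled for gene length and library size) at 18 months and 117.8 ± 35.8 TPM at 10 months (SD, n = 10 each), above its paralogs. Pfkfb1 averaged 39.4 TPM at 18 months and 38.5 TPM at 10 months, Pfkfb4 22.1 TPM at 18 months and 26.7 TPM at 10 months, and Pfkfb2 5.06 TPM at 18 months and 5.05 TPM at 10 months. Of the 25 glycolysis and glycogen genes tested, Pfkfb3 alone was called, and the list's median log2 fold change was 0.02.

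Amy1, an alpha-amylase that cleaves starch and glycogen chains, had 55.2, 65.6 and 91.3 CPM at 18 months, against 42.4, 49.5 and 54.7 CPM at 10 months. The lowest 18-month library lay just above the highest 10-month one. The log2 fold change was 0.47 ± 0.08 (adjusted p = 0.00538). In GENCODE M21 the gene lies at chr3:113555710-113606699 on the minus strand, and 1128 of its 3446 exon bases are shared with Rnpc3 on the same strand, so part of its count may belong to Rnpc3. Embigin (Emb), a glycoprotein that pairs with lactate transporters, had 2.8, 3.9 and 4.76 CPM at 18 months, against 1.89, 2.43 and 3.55 CPM at 10 months, a log2 fold change of 0.62 ± 0.12 (adjusted p = 0.0236). Of the 10-month libraries, 2.2 alone lay within the 18-month range, at 3.55 CPM.

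Sh2d4a, Pde7a, Deptor, Arc and Tifa rose as well. Sh2d4a encodes an adaptor with an SH2 domain and had the smallest p of all tested genes. It had 4.06, 5.2 and 7.09 CPM at 18 months, against 2.33, 3.46 and 3.85 CPM at 10 months, and its log2 fold change was 0.72 ± 0.11 (adjusted p = 0.00136). It lies at chr8:68276567-68347699. Pde7a, a phosphodiesterase that breaks down cyclic AMP, was among the abundant called genes. It had 117, 140 and 161 CPM at 18 months, against 82.7, 106 and 142 CPM at 10 months (log2 fold change 0.40 ± 0.08, adjusted p = 0.0275). The 10-month maximum was library 3.1, and the other 9 stayed at or under 116 CPM, below every 18-month library. Deptor, an inhibitor that binds the growth kinase mTOR, had 82.8, 109 and 136 CPM at 18 months, against 64, 82.9 and 112 CPM at 10 months (log2 fold change 0.41 ± 0.09, adjusted p = 0.0438). Arc, an immediate early gene of synaptic plasticity, was low, with 0.389, 0.64 and 1.41 CPM at 18 months, against 0.117, 0.324 and 0.525 CPM at 10 months (log2 fold change 1.21 ± 0.25, adjusted p = 0.0275). It was the 1 called gene of 22 immediate early genes tested, whose median log2 fold change was -0.05. Tifa, an adaptor of innate immune signalling, had 2.76, 2.97 and 3.72 CPM at 18 months, against 1.7, 2.34 and 2.45 CPM at 10 months (log2 fold change 0.51 ± 0.11, adjusted p = 0.0438).

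The enzyme genes Lrat and Acer2 rose. Lrat, which links retinol to fatty acids for storage, was scarce but separated the groups: it had 0.213, 0.332 and 0.801 CPM at 18 months, against 0.037, 0.106 and 0.181 CPM at 10 months. Its log2 fold change of 1.76 ± 0.27 (adjusted p = 0.00136) rests on few counts per library. Acer2, a ceramidase of the Golgi that frees sphingosine, had 2.28, 3.36 and 6.31 CPM at 18 months, against 1.69, 2.09 and 3.01 CPM at 10 months (log2 fold change 0.75 ± 0.14, adjusted p = 0.0233). It was the 1 called gene of 19 ceramide and sphingolipid enzymes tested, and their median log2 fold change was -0.003.

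Of the genes for matrix, surface and glycan proteins, Col11a2, a chain of type XI collagen known mostly from cartilage, rose. It had 8.99, 10.9 and 13.6 CPM at 18 months, against 1.83, 6.01 and 8.73 CPM at 10 months, and lies at chr17:34039437-34066685. The log2 fold change was 0.86 ± 0.17 (adjusted p = 0.0233). The lowest 10-month value, 1.83 CPM, was library 3.1, and the other 9 held 5.36 to 8.73 CPM. Its partner chain Col11a1 averaged 0.295 ± 0.0845 TPM at 18 months and 0.258 ± 0.0822 TPM at 10 months (SD, n = 10 each). Col11a2 averaged 3.24 ± 0.422 TPM at 18 months and 1.75 ± 0.49 TPM at 10 months (SD, n = 10 each). Mlec, a lectin of the endoplasmic reticulum that reads new glycans, rose by a log2 fold change of 0.25 ± 0.05 (adjusted p = 0.0394), with 216, 240 and 285 CPM at 18 months against 187, 208 and 226 CPM at 10 months. The remaining rises were Fam174b (1.77 ± 0.34, adjusted p = 0.0233), Mpzl3 (0.84 ± 0.18, adjusted p = 0.0363), Plag1 (0.61 ± 0.12, adjusted p = 0.0236), Tmem132b (0.55 ± 0.11, adjusted p = 0.0275) and Wbscr17 (0.48 ± 0.11, adjusted p = 0.049), all as log2 fold changes. Plag1 is a zinc-finger transcription factor, and Wbscr17, in GENCODE Galnt17, belongs to the enzymes that start mucin-type glycans. Fam174b had 3.29, 5.67 and 14.9 CPM at 18 months, against 1.24, 1.65 and 4.61 CPM at 10 months, with library 4.3 high in the older group and 3.2 high in the younger.

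Genes that fell included 3 with secreted products. Chrdl2, a chordin-like antagonist of bone morphogenetic proteins, had 0.37, 0.558 and 1.11 CPM at 18 months, against 0.686, 1.35 and 1.54 CPM at 10 months. Its log2 fold change was -1.02 ± 0.19 (adjusted p = 0.0168), and it was the 1 called gene of 31 tested in BMP and TGF-beta signalling. Erfe (erythroferrone, or myonectin), a secreted regulator of iron handling, had 0.133, 0.309 and 0.578 CPM at 18 months, against 0.352, 0.854 and 1.34 CPM at 10 months (log2 fold change -1.23 ± 0.25, adjusted p = 0.0249). Library 3.1 held the low value of 10 months, at 0.352 CPM, and the other 9 held at least 0.642 CPM, above every 18-month library. Lbp, the plasma protein that binds bacterial lipopolysaccharide, had 5.28, 6.38 and 7.44 CPM at 18 months, against 7.24, 8.39 and 10.9 CPM at 10 months (log2 fold change -0.41 ± 0.09, adjusted p = 0.049). Nnat, neuronatin, an imprinted gene for a small membrane protein, fell most. It had 0.803, 1.88 and 5.15 CPM at 18 months, against 1.32, 5.84 and 12.0 CPM at 10 months, a log2 fold change of -1.49 ± 0.29 (adjusted p = 0.0233). It was the 1 called gene of 23 imprinted genes tested; the groups overlapped, as library 3.1 of 10 months held 1.32 CPM and library 5.2 of 18 months held 5.15 CPM. The long noncoding Gm28651 fell as well, by a log2 fold change of -0.46 ± 0.10 (adjusted p = 0.0394).

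Opposite-strand transcripts overlap exons of some of these genes in GENCODE M21, and the kit does not mark strand. Among the called genes the longest such stretches were 686 of 6906 exon bases of Emb (with Gm17509), 527 of 3262 of Fam174b (with A830073O21Rik) and 357 of 2815 of Erfe (with Ilkap). Reads of these partners cannot be told apart from those of the genes.

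The calls depended on single libraries. With each of the 20 libraries left out in turn, between 3 and 80 genes were called. Sh2d4a, Lrat and Amy1 were called in all 20 of these fits. Chrdl2, Acer2, Fam174b, Nnat and Col11a2 were lost only without library 1.2, where their adjusted p lay between 0.051 and 0.0533. Plag1 was lost without 1.2 and without 1.4, and Emb without these and without 6.1. The other 13 genes were all lost without 1.2 and also without 1.4, both of 10 months. Pfkfb3 was called in 8 of the 20 fits and Lbp in 6. Counts were more than 1.5 times lower than 23 without 1.2 (3 genes), 1.4 (9), 6.1 (10), 2.2 (11), 1.1 (13), 9.3 (14), 8.2 (15) and 4.3 (15), and higher without 3.1 (80). With the first part of the number as a random block in limma, 4 genes were called (0.0266%): Sh2d4a, Lrat, Amy1 and Chrdl2. The consensus correlation within that first part was 0.0612. This fit also put limma in place of edgeR, so the part of the block in the lower count was not tested.

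**Figure D2:**
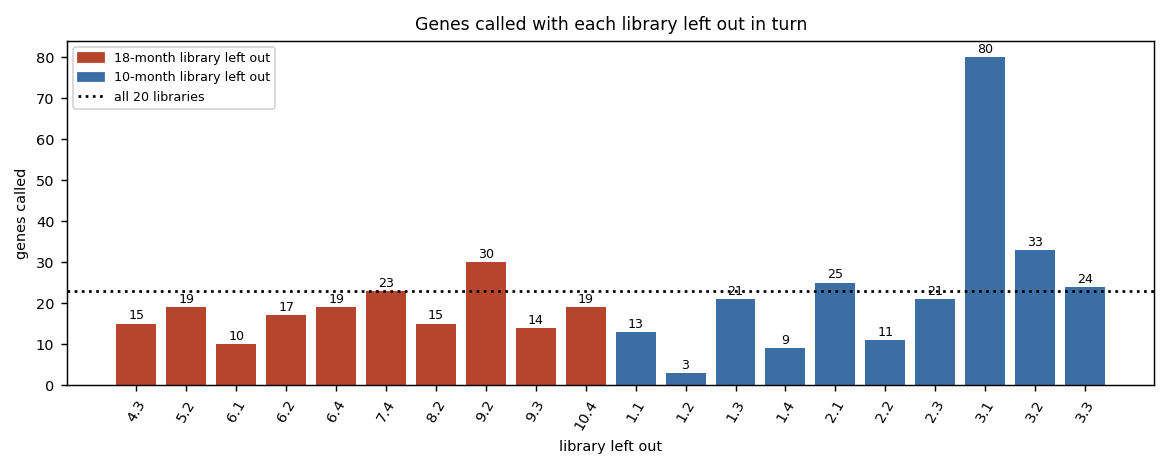
Number of genes called (y axis) when the library named on the x axis is left out, with 18-month libraries left and 10-month libraries right, and the count of 23 with all libraries as a dotted line. The counts run from 3 without library 1.2 to 80 without library 3.1.

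Without libraries 3.1 and 2.2, 49 of 15182 tested genes were called (0.323%), 26 higher (0.171%) and 23 lower (0.151%) at 18 months. Of the 23 genes, 16 were among them, while Mpzl3, Pfkfb3, Deptor, Tifa, Lbp and Wbscr17 kept their direction with adjusted p between 0.0598 and 0.0811. Of the 33 genes gained, 31 were also called without 3.1 alone. The 10 gained genes with the smallest p included 7 that fell. Col15a1, a collagen of basement membranes, had a log2 fold change of -0.70 without both libraries (adjusted p = 0.00598), against -0.57 with them. It had 15.2, 18.4 and 24.1 CPM at 18 months, against 27.7, 30.7 and 35.6 CPM in the 8 libraries of 10 months, with no overlap, as in 0.0922% of genes downward, and 9.7 CPM in library 3.1 and 25.5 CPM in library 2.2. Lep, the fat-cell hormone leptin, had a log2 fold change of -1.97 without both (adjusted p = 0.00598) and of -1.74 with them (adjusted p = 0.052). It had 0.537, 0.964 and 3.66 CPM at 18 months, against 2.13, 3.74 and 13.4 CPM in the 8 libraries. Beside it, the 12 adipocyte markers, Lep included, had a median of -0.15 with all libraries and -0.19 without both, where 3 had a positive fold change and Lep alone was called. Adipoq and Pnpla3 were both at -0.58 without both libraries, not called. The summed adipocyte markers were 1612, 2125 and 2940 CPM at 18 months, against 1441, 1958 and 2413 CPM at 10 months. Car3 made up most of these sums, with 1240, 1747 and 2487 CPM at 18 months, against 835, 1556 and 2041 CPM at 10 months. The sums therefore do not show the direction of the scarcer markers. With all libraries, 4 of the 12 markers had a positive fold change. The part of fat cells in the Lep value was not tested. Without both, Creb3l1 (-0.61), a transcription factor that drives collagen secretion, and Adamtsl2 (-0.89), a matrix protein bound to microfibrils, also fell, as did Tuba1a (-0.47), Tceal8 (-0.39) and Col18a1 (-0.41). Sav1 (0.26), a scaffold of Hippo signalling, Zfp26 (0.30) and Prkcq (0.17) rose. On the opposite strand, Sav1 shares 1336 of 5265 exon bases with Atl1 and Zfp26 shares 2004 of 14154 with Gm26733. Tuba1a shares 473 of 1803 with Gm49450 on the same strand. Part of the counts of Sav1, Zfp26 and Tuba1a may therefore belong to these partners.

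The matrix list shows what these libraries do to a group of genes. Of 33 collagen and matrix genes tested, Col11a2 alone was called among all 20 libraries, while 0.113% of all tested genes were called higher. A positive fold change was seen in 11 (33.3%), against 42.7% of all tested genes. The median log2 fold change of the list was -0.15, beside -0.02 for all tested genes. Downward, 6 (18.2%) had an unadjusted p under 0.05, against 5.54% of all genes. Without libraries 3.1 and 2.2, 3 of the 33 matrix genes were called lower, against 0.151% of all genes. In that fit 4 had a positive fold change (12.1% of the list, against 50.6% of all genes). Downward, 18 had an unadjusted p under 0.05 (54.5%, against 4.98%), and the median was -0.27, beside 0.002 for all genes. The 3 called lower were Col15a1 and, outside the naming rule and picked after their values were seen, Sparc and Col6a2. Sparc, a collagen-binding glycoprotein, had 121, 139 and 169 CPM at 18 months, against 167, 181 and 215 CPM in the 8 libraries of 10 months. Col3a1, a main fibrillar collagen, had 77.7, 128 and 147 CPM at 18 months, against 157, 171 and 263 CPM in the 8 libraries, but its adjusted p was 0.0963. The Col3a1 level was 43.8 CPM in library 3.1 and 102 CPM in library 2.2. Col1a1, the other fibrillar chain named, had log2 fold changes of -0.58 without both libraries and -0.39 with them, neither called. The summed level of the list was 918, 1197 and 1360 CPM at 18 months, against 590.8, 1464 and 1803 CPM at 10 months, where the lowest value is library 3.1. Library 2.2 held 1115 CPM, within the 18-month range. The 8 libraries of 10 months left without these held 1387 to 1803 CPM, above every 18-month library. Markers of fibro-adipogenic cells, which make much of this matrix, lay at 1022 to 1339 CPM at 18 months and at 1180 to 1551 CPM in those 8 libraries. Their 12 genes had a median of -0.13 with all libraries and -0.22 without both, none called, and their part in the matrix result was not tested.

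Markers of Schwann cells, the glia that wrap motor axons in muscle, leaned downward with no call. Of 16 tested, 1 (6.25%) had a positive fold change and 6 (37.5%) an unadjusted p under 0.05 downward, against 42.7% and 5.54% of all genes, and the median was -0.34. Without libraries 3.1 and 2.2, 0 of the 16 had a positive fold change, 7 (43.8%) had an unadjusted p under 0.05 downward and the median was -0.32. In that fit Pmp22, a myelin protein, was called at -0.35 (adjusted p = 0.048). The summed markers were 94.6, 114 and 154 CPM at 18 months, against 88.1, 141 and 229 CPM at 10 months, so the groups overlapped. Macrophage markers had a median of 0.01 in 15 genes with all libraries and of -0.07 without both, and endothelial markers 0.02 and -0.08 in 14 genes, so their direction turned. Satellite cell markers had a median of -0.11 in 11 genes, and -0.10 without both. None of the 3 lists held a call in either fit.

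**Figure D3:**
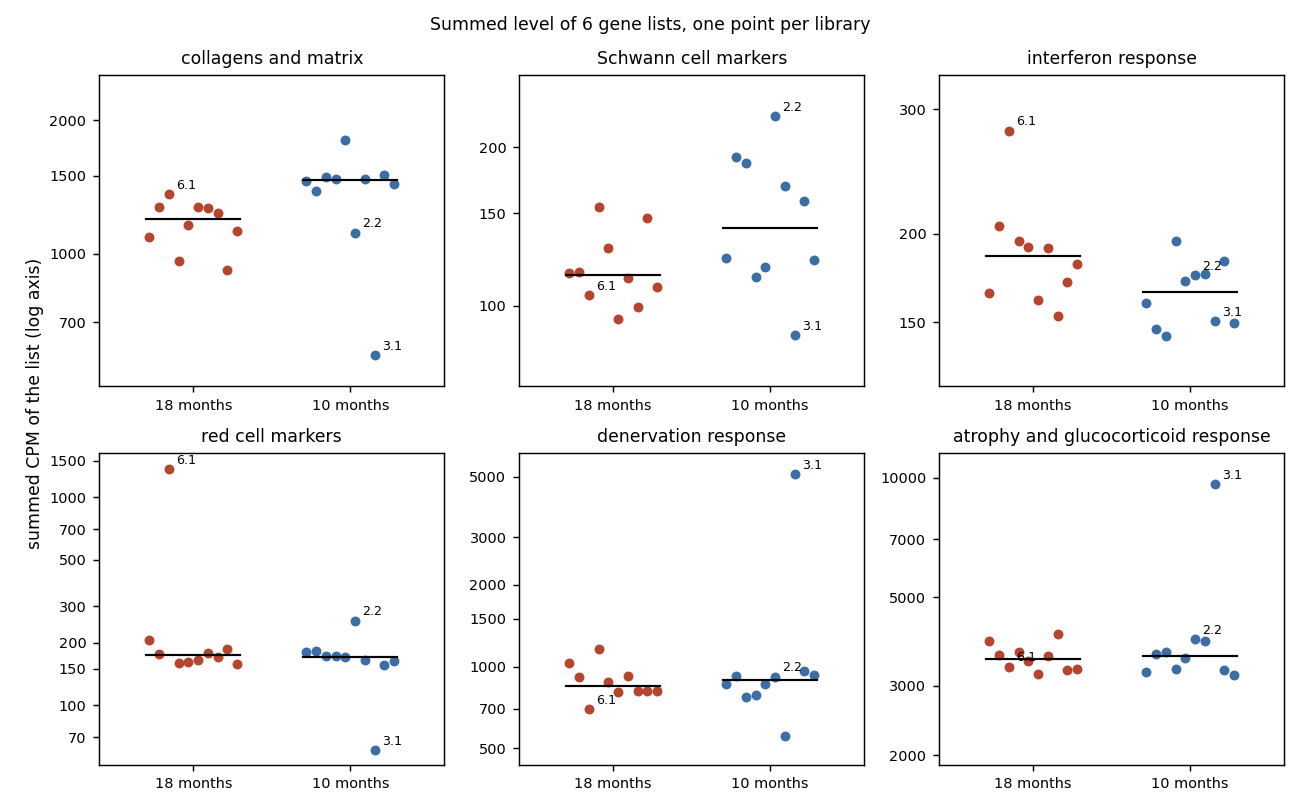
Summed CPM (log axis) of 6 gene lists in each library, 18 months left and 10 months right, with medians as bars. Library 3.1 of 10 months stands apart in several lists, and library 6.1 of 18 months in interferon and red cell genes.

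Interferon response genes, which viruses and inflammatory signals switch on, leaned upward with no call. Of 33 tested, 32 had a positive fold change and 16 (48.5%) an unadjusted p under 0.05 upward, against 42.7% and 4.31% of all genes. The median log2 fold change was 0.27. Irf7, which amplifies the response and lies outside the naming rule, had 1.95, 4.41 and 7.89 CPM at 18 months, against 1.78, 3.02 and 4.19 CPM at 10 months. Ifit1, which binds foreign RNA, had 1.21, 2.6 and 3.77 CPM at 18 months, against 1.44, 1.65 and 2.63 CPM at 10 months (log2 fold change 0.50 ± 0.15, adjusted p = 0.191). Their highest values were in library 6.1, and the groups overlapped in both. The summed list was 153, 186 and 280 CPM at 18 months, against 143, 166 and 196 CPM at 10 months, and library 6.1 held the 280 CPM. Without 6.1 the median was 0.16, 29 of the 33 had a positive fold change and 9 had an unadjusted p under 0.05 upward. In that fit 1309 of 15097 tested genes passed this level, both directions together. Without libraries 3.1 and 2.2 the median was 0.25, and 30 had a positive fold change (90.9%, against 50.6% of all genes). There 11 had an unadjusted p under 0.05 upward (33.3%, against 5.17%), with none called. The 8 tested lymphocyte markers had a median of 0.25, with summed levels of 3.71 to 6.88 CPM at 18 months and 2.96 to 5.61 CPM at 10 months, and 6 of the 18 listed were under 0.1 CPM. The 15 macrophage markers summed to 138.6 to 297.5 CPM at 18 months, highest in library 6.1, and to 114.7 to 263.5 CPM at 10 months. The part of either cell type in the interferon values was not tested.

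Red cell genes rested on library 6.1 as well. Their sum was 1362 CPM there, 159 to 206 CPM in the other 9 libraries of 18 months and 60.9 to 255 CPM at 10 months. The median of 6 genes was 1.43 on the log2 scale with library 6.1 and 0.03 without it.

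**Figure D4:**
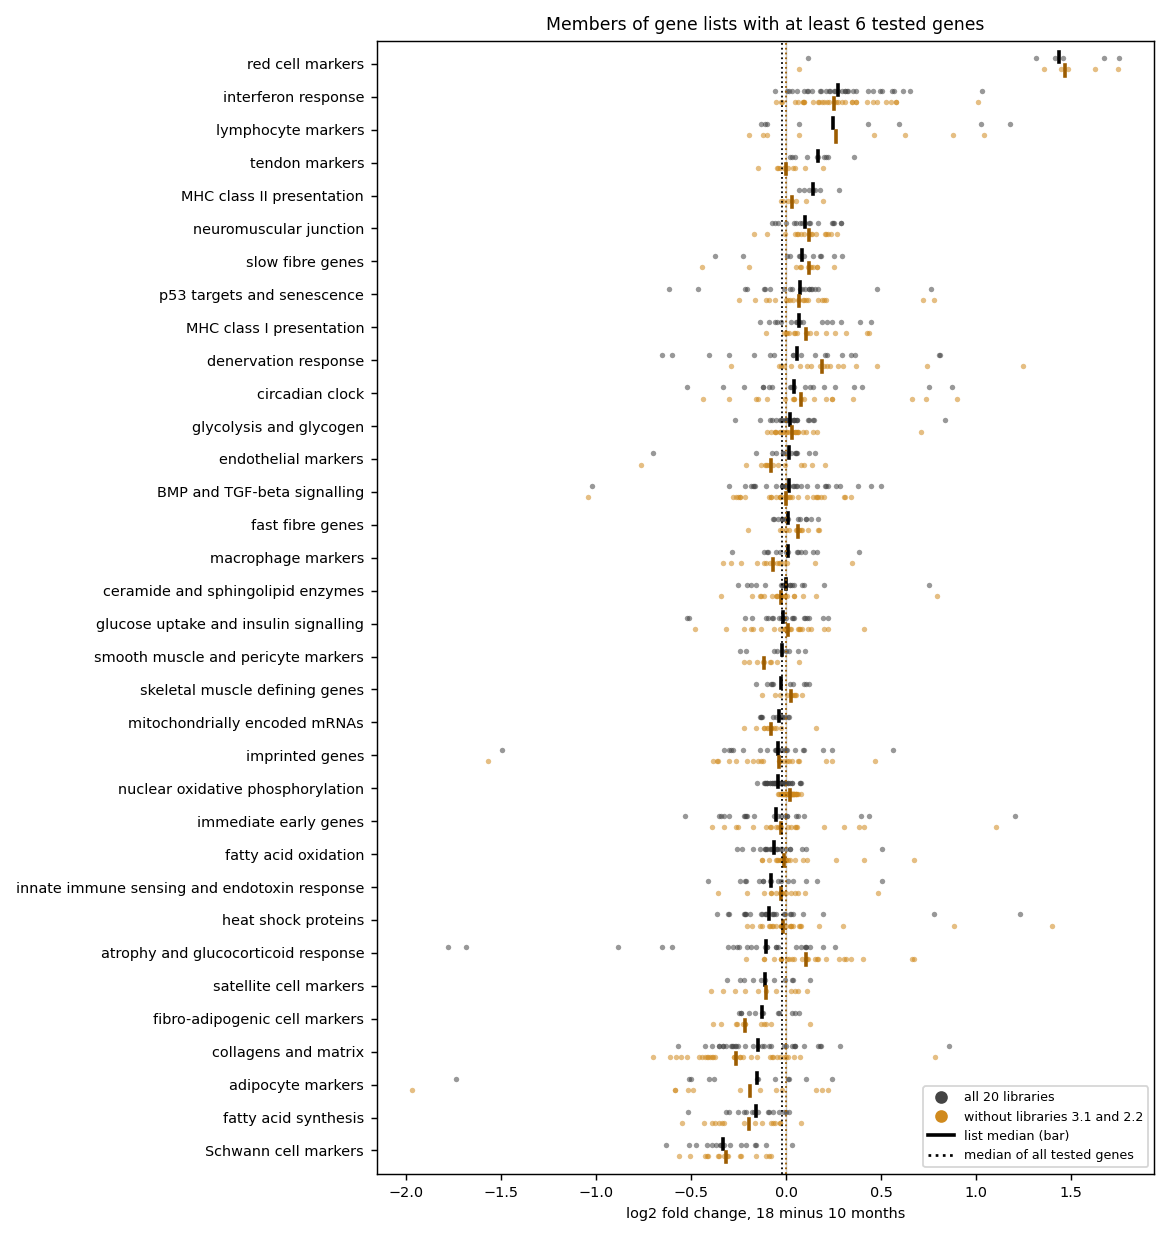
Log2 fold changes (18 minus 10 months) of the members of each list with at least 6 tested genes, ordered by the list median, with all 20 libraries (grey) and without libraries 3.1 and 2.2 (orange), with medians as bars and those of all tested genes as dotted lines. With all libraries, Schwann markers have the lowest median, -0.34, red cell markers the highest, 1.43, and interferon genes lie at 0.27.

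Fibre type genes did not differ beyond the test. The myosin Myh4 of the fastest fibres made up 91.7 ± 0.80% of the summed TPM of the 4 adult myosins at 18 months and 91.0 ± 1.52% at 10 months (SD, n = 10 each). Myh2 of fast oxidative fibres made up 3.6 ± 0.514% at 18 months and 3.96 ± 1.03% at 10 months, and Myh7 of slow fibres 0.261 ± 0.059% at 18 months and 0.251 ± 0.0759% at 10 months. Myh3, the embryonic myosin that marks regenerating or denervated fibres, had 4.39, 8.86 and 13.2 CPM at 18 months, against 3.39, 4.36 and 7.52 CPM at 10 months, and missed the call (0.80 ± 0.19, adjusted p = 0.0663). The 17 junction genes had a median of 0.10, with 14 of them positive (82.4%, against 42.7% of all genes). Without libraries 3.1 and 2.2 the median was 0.12 and 14 were positive, against 50.6% of all genes. The receptor subunit Chrne was at 0.25 ± 0.13 (adjusted p = 0.527), and at 0.22 without both. It stood at 4.34 CPM in library 3.1, against 11.2 to 19.3 CPM in the other 19 libraries. The 18 denervation genes had a median of 0.06, and 0.19 without both libraries; library 3.1 held 5113 CPM of them and the other 19 libraries 557 to 1159 CPM. For the 26 atrophy and glucocorticoid response genes the median turned from -0.11 to 0.11 when both libraries were left out, and library 3.1 held 9643 CPM against at most 4047 CPM elsewhere.

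Clock genes were mixed. Of 19 tested, 4 (21.1%) had an unadjusted p under 0.05 upward and 2 (10.5%) downward, against 4.31% and 5.54% of all genes, with none called. Cry1, a repressor of the loop, had 12.5, 16.0 and 20.1 CPM at 18 months, against 17.5, 20.02 and 24.6 CPM at 10 months (-0.33 ± 0.08, adjusted p = 0.0808). Dbp, an output gene of the loop, had 27.6, 37.1 and 59.7 CPM at 18 months, against 13.2, 22.9 and 33.4 CPM at 10 months (0.87 ± 0.24, adjusted p = 0.135). Nr1d1, a repressor of Arntl, had 141, 193 and 238 CPM at 18 months, against 89.3, 161 and 220 CPM at 10 months (0.36 ± 0.13, adjusted p = 0.304). The activator Arntl and the repressor Per2 were both at -0.12. The hour of tissue collection is not given in the sources used here. Tbc1d1, a brake on glucose transporter traffic, also stayed just outside the call at -0.52 ± 0.12 (adjusted p = 0.0521), as did Lep.

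In the neighbouring quadriceps, fitted on its own, 52 of 14790 tested genes changed between the ages (0.352%). Of the 23 gastrocnemius genes 22 were tested there, and all 22 had the same sign. The share of all tested genes with the same sign in both muscles was not taken, so this count has no reference. In quadriceps 10 of them were called, among them Sh2d4a, Amy1, Acer2, Nnat, Erfe, Mpzl3, Mlec, Gm28651 and Pfkfb3. Pfkfb3 averaged 438 ± 134 CPM at 18 months and 227 ± 74.6 CPM at 10 months in quadriceps (SD, n = 9 and 10), a log2 fold change of 0.95 ± 0.21 (adjusted p = 0.0369). Erfe averaged 0.325 ± 0.124 CPM at 18 months and 0.86 ± 0.189 CPM at 10 months there, a log2 fold change of -1.37 ± 0.24 (adjusted p = 0.00406). Quadriceps and gastrocnemius samples carry the same numbers and may come from the same mice, so the muscles are not independent. The difference in the ageing effect between gastrocnemius and quadriceps was called for 0 of 15433 genes by edgeR, with 232 (1.5%) at an unadjusted p under 0.05. Without libraries 3.1 and 2.2 of both muscles it was called for 0 genes as well, with 372 (2.41%) at that level. Of the 23 genes 3 had an unadjusted p under 0.05, namely Chrdl2, Tmem132b and Lbp. As the 23 were chosen by gastrocnemius values that enter this difference, the count and the p-values of these genes are a description. The difference for Chrdl2, gastrocnemius minus quadriceps, was -0.70 on the log2 scale (unadjusted p = 0.0132).

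In spinal cord 22 of the 23 were tested, 8 had the same sign and none was called, while 1015 of 18956 genes (5.35%) were called there. The ageing effect in gastrocnemius minus that in cord was called for 16 of the 23, beside 199 of 19580 genes (1.02%). The members were chosen by their gastrocnemius values, which enter this difference, so the count is a description. Nnat showed this with a difference of -1.67 and Fam174b with 1.83 on the log2 scale.

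**Figure D5:**
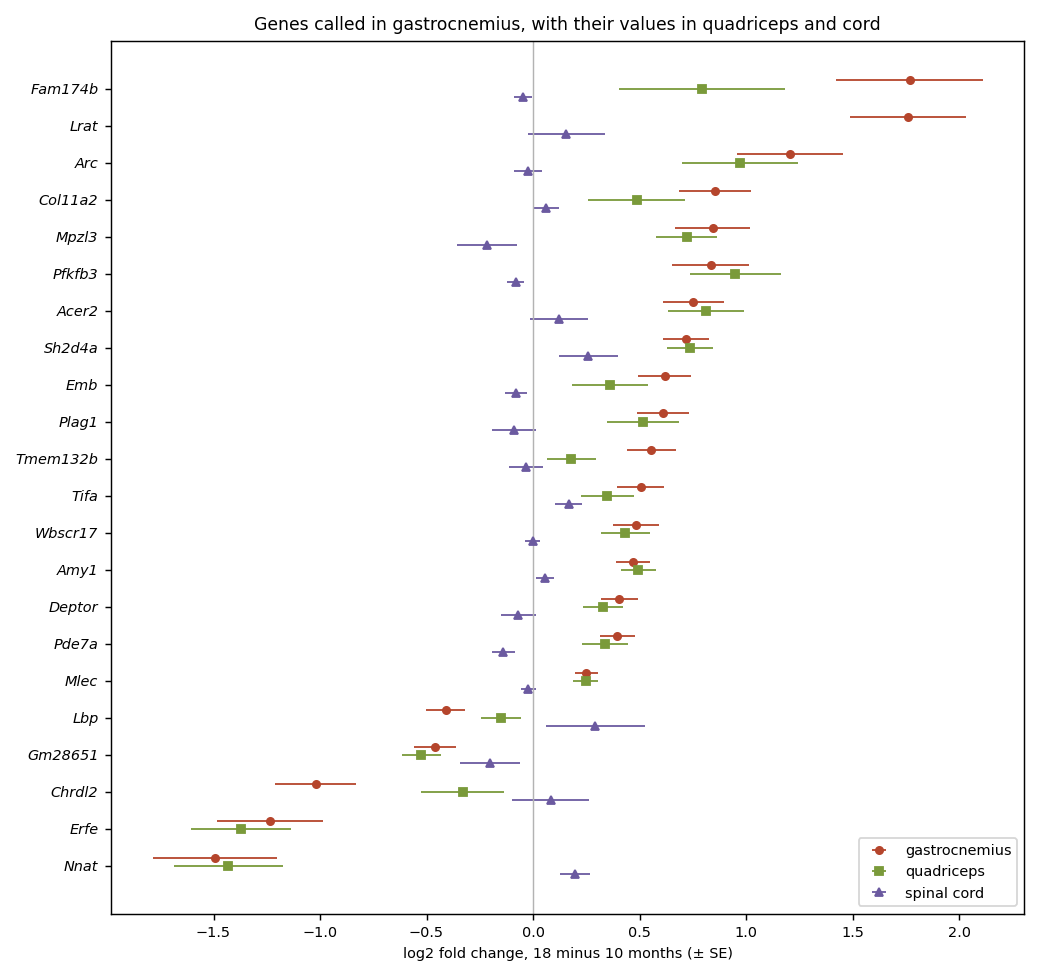
Log2 fold changes (18 minus 10 months, ± SE) of 22 called genes in gastrocnemius, quadriceps and spinal cord. In quadriceps every gene with a value lies on the same side of 0 as in gastrocnemius, and in cord many lie near 0 or on the other side.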

How the data were processed

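Libraries were made from polyadenylated RNA with the TruSeq RNA v2 kit, per the labels' protocols, and the submitters' processing notes name STAR 2.5.2b as a tool and GRCm38.p5 as the build. Which program counted reads, and on which strand, is not given in the sources used here. Deposited counts are whole numbers per gene, not normalized, and the deposited table gives a gene length. TPM values are the authors' deposited ones. Groups came from sample titles; 2 of the 99 labelled samples, both quadriceps, are not analysed here.

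Counts were tested with edgeR 4.0.16 in R 4.3.3 (quasi-likelihood F test, TMM, filterByExpr with a minimum count of 10 and total of 15). The fit held 33 gastrocnemius libraries, including 13 of exercised 18-month mice that share the spread estimate. Tests were two-sided, and genes were called under 0.05 after Benjamini-Hochberg adjustment across all genes that passed the filter. SE values derive from the F statistic, and CPM are TMM-scaled. The difference between tissues was a contrast of 1 fit over both tissues. Library measures were compared by permutation in Python 3.11.15. The procedure was tested on simulated data. Alternatives were DESeq2 1.42.0, limma 3.58.1 with voom quality weights or a random block, RLE factors, 2 filters, the compared groups only, sva 3.50.0 with 2 surrogate variables, a gene length slope and libraries left out. Named genes are every called gene, 1 of which is not reported here, up to 3 members of each list by p where none was called, some fixed fibre, junction, clock and matrix genes, and up to 10 genes gained without libraries 3.1 and 2.2. The members, the 36 lists and the rules were chosen with earlier results of these data known. Gene positions are from GENCODE M21 and promoters from RefSeq. Totals of 30.56 to 45.02 M counts leave genes near 0.1 CPM at a few counts per library.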

Additional observations from a re-analysis of the deposited data

Results flagged for a closer look

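In groups of 10 libraries, 29 of 128 sets of values held a library far from the other 9, where chance gives about 1 in 20 (5%). The sets come from the same 20 libraries and are not independent, so the 2 shares do not make a test against chance. Of the 29, library 3.1 of 10 months accounted for 16, library 2.2 for 5 and library 6.1 of 18 months for 3. Library 3.1 stood apart in Col11a2 (1.83 CPM), in the share of its 10 most abundant genes (21.8%), and in the summed CPM of lists for ceramide enzymes (306), denervation (5113), atrophy (9643), the clock (1699), innate sensing (297), heat shock (9677), p53 targets (1749), neutrophils (12.0), satellite cells (262), fibro-adipogenic cells (593.6), tendon (61.7), endothelium (329), smooth muscle (214) and red cells (60.9). Library 2.2 stood apart in Emb (3.55 CPM), summed nuclear oxidative phosphorylation genes (28515 CPM), mitochondrial share (7.15%), genes detected (19299) and length slope (-0.237). At 18 months, library 6.1 was far off in Lrat (0.801 CPM), interferon genes (280 CPM) and red cell genes (1362 CPM), library 9.3 in Amy1 (91.3 CPM), 4.3 in Fam174b (14.9 CPM), 5.2 in neutrophil markers (9.74 CPM) and 1 more library in smooth muscle markers (341 CPM). Library 3.2 of 10 months was far off in Fam174b (4.61 CPM).

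In an edgeR contrast of both tissues, the ageing effect in gastrocnemius minus that in spinal cord was called for 16 of the 23 genes. Among all tested genes it was called for 199 of 19580 (1.02%). The 23 were chosen by their gastrocnemius values, which enter this difference, so the count is a description. The difference, gastrocnemius minus cord, was 1.83 for Fam174b, 1.63 for Lrat, 1.26 for Arc, 1.07 for Mpzl3, 0.933 for Pfkfb3, 0.816 for Col11a2, 0.724 for Emb, 0.724 for Plag1, 0.61 for Tmem132b, 0.557 for Pde7a, 0.502 for Wbscr17, 0.496 for Deptor, 0.435 for Amy1, 0.291 for Mlec, -1.08 for Chrdl2 and -1.67 for Nnat, all on the log2 scale.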

How the results depend on the processing

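The count of 23 genes moved to 75 with DESeq2, 481 with limma voom quality weights, 126 with 2 surrogate variables and 36 with the length slope. It moved to 49 without libraries 3.1 and 2.2 and to 4 with limma and the random block. With 1 library left out it moved to between 3 and 80. It was 21 with RLE factors, 21 with the CPM filter, 16 with no filter and 16 with the compared groups only. All 686 values of the called genes under the 30 other settings kept their sign, with 495 called. The S100a8 log2 fold change, -0.05 and not called, was 1.603 with limma voom quality weights (adjusted p = 0.0322) and 1.79 without both libraries (adjusted p = 0.193). S100a8 stood at 3.62 CPM in library 3.1, against 0.156 to 1.29 CPM at 18 months. Of the named genes not called, 28 were called by some setting and 11 changed sign in some setting.

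Numbers are shared between tissues. Deviations of same-numbered gastrocnemius and quadriceps libraries correlated across genes with a median of 0.224 (-0.196 to 0.877), over 0.1 in 28 of 31 pairs, and 20 matched their own number best; with cord the median was 0.0407, over 0.1 in 6 of 33 pairs. As not every pair passed, the replicate block was an alternative: it called 0 genes for gastrocnemius minus quadriceps, as without it, and 191 against 199 for gastrocnemius minus cord. Both age groups of gastrocnemius share no number, so the ageing test itself has no block. Genes under 1 CPM, among them Lrat, Erfe and Arc, rest on few counts.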
